A study of Mus musculus with 20 samples.

Results

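Regulators of G protein signalling (RGS proteins) shorten the signal that a G protein-coupled receptor sends into the cell. A receptor that meets its ligand loads the alpha subunit of its G protein with GTP, and an RGS protein speeds the hydrolysis of that GTP so that alpha rejoins the beta-gamma pair. Monocytes and macrophages move by chemokine, formyl peptide and complement receptors that mostly use Gi proteins, which are substrates of most small RGS proteins. Rgs16 and 7 related genes (Rgs1, Rgs2, Rgs3, Rgs10, Rgs14, Rgs18 and Rgs19) were taken by gene symbol, 8 of 59311 features in the table. Rgs16 was chosen by its own values, since it was listed at 0 in every Ly6Clo library of vehicle mice and above 0 with Ac-6-FP, so that its difference between these groups is given as a description without a test.

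RNA was sequenced from Ly6Chi and Ly6Clo monocyte-derived macrophages (MoMac) sorted from the liver of 10 male C57BL/6J mice, aged 10 to 12 weeks according to the Methods. All 10 mice had fibrosis from CCl4, given at 0.6 ml/kg in 2 injections a week for 4 weeks, and none of the groups was free of CCl4. From 2 h before the last CCl4 injection, and daily for 2 days after it, 5 mice received 0.25 mg/kg Ac-6-FP, which binds MR1 and inhibits mucosal-associated invariant T (MAIT) cells, and 5 received its vehicle (1% DMSO in PBS). The gate was Ly6G-, CD11c-, CD3-, CD11b+ and F4/80+, and both subsets of a mouse were split by Ly6C, which gave 4 groups of 5 libraries (Ly6Chi or Ly6Clo, each with vehicle or Ac-6-FP). Since Ac-6-FP was given to the whole animal, its effect on MoMac and on the cells around them cannot be told apart.

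Values are DESeq2-normalized counts, which are not divided by gene length, and each library held 5693049 to 18682437 reads on genes. The Ly6Clo library of vehicle mouse 13 stood apart, with 5343 genes above 0 against 9017 to 15766 in the other 19, so most differences of the members are also given without mouse 13, while list medians and marker ranges include it unless stated. Ly6c2 ranged from 4930 to 10012 in Ly6Chi and from 284 to 1014 in Ly6Clo libraries, and Adgre1, which encodes F4/80, was above 0 in all 20. Ly6Clo libraries also carried transcripts known from cells outside the label. The summed level of 5 NK cell markers was 41813 to 93247 in Ly6Clo and 0 to 672 in Ly6Chi libraries, while that of 5 T cell markers was 0 to 326 in Ly6Clo and 0 to 140 in Ly6Chi, with Cd3e at 0 in 18 libraries. Itgax, which encodes the gated-out CD11c, was at 0 in all Ly6Chi libraries and reached 3302 in Ly6Clo. In such bulk libraries, fewer cells of a type and less RNA per cell cannot be told apart.

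Rgs16 lies on the plus strand of chromosome 1 (mm10, chr1:153740351-153745468, 5 exons in GENCODE vM21) and acts on Gi and Gq alpha subunits. Rgs2 (chr1:143999338-144004151, minus strand, best known for acting on Gq), Rgs1 (chr1:144242296-144249104, minus strand) and Rgs18 (chr1:144752683-144775428, minus strand) lie together on the same chromosome. The gap between the ends of Rgs2 and Rgs1 is 238 kb, that from Rgs1 to Rgs18 504 kb, and that from Rgs18 to Rgs16 8965 kb. Other Rgs genes lie in these gaps: Rgs13 in the first, Rgs21 in the second and Rgs8 in the third. Rgs8 (chr1:153653037-153697667) lies close to Rgs16. RefSeq promoter windows (GRCm38.p6) were found for 5 of the 8 genes: Rgs16, Rgs2, Rgs3, Rgs10 and Rgs19. The 250 bases before the start are shown for Rgs16, which was listed at 0 in 15 libraries, and for Rgs2, which was present in all 20, with GC box letters (GGGCGG, or CCGCCC on the other strand) in capitals.
Rgs16, chr1:153740103-153740352, plus strand: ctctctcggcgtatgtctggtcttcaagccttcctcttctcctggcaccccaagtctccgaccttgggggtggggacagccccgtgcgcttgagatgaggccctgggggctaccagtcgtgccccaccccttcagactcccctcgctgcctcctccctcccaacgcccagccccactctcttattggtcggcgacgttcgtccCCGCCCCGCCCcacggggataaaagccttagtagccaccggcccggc
Rgs2, chr1:144004150-144004399, minus strand: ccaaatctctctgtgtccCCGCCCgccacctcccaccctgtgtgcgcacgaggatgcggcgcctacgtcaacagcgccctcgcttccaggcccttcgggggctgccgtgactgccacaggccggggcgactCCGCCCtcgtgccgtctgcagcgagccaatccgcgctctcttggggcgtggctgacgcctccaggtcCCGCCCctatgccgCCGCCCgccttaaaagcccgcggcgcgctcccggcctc
The GC box occurred at 2 places in the Rgs16 window, which overlap by 1 base, and at 4 in the Rgs2 window, and it is a common motif found in 32.7% of all 32851 windows of this length. Neither window held the TATA box letters TATAAA (12.4% of windows), an AP-1 site (TGAGTCA or TGACTCA, 4.46%), the cAMP response element TGACGTCA (1.55%) or the PU.1 core GAGGAAGT (2.44%) on either strand, which says only that these letters are not in these windows.

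Rgs16 was detected in 1 of the 4 groups. In Ly6Clo MoMac exposed to Ac-6-FP, it was at 167, 195, 263, 103 and 189 normalized counts in mice 16 to 20 (183 ± 57.6, SD, n = 5), from 176, 174, 220, 120 and 204 reads. It was at 0 in all 5 Ly6Clo libraries of vehicle mice, at 0 in all 5 Ly6Chi libraries of vehicle mice and at 0 in all 5 Ly6Chi libraries of the mice exposed to Ac-6-FP. A count of 0 allows up to 3 reads, which is 2.67 to 6.26 normalized counts in the Ly6Clo vehicle libraries and 1.87 to 3.21 in the Ly6Chi libraries. Against the mean of these limits, set for each library, the Ac-6-FP mean in Ly6Clo was at least 50.3-fold higher than in vehicle mice, and at least 61.2-fold higher without mouse 13. Within the mice exposed to Ac-6-FP, the Ly6Clo value was at least 39.9-fold to at least 92.9-fold higher than the limit in the Ly6Chi library of the same mouse. Such limits cover counting error only.

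**Figure D1:**
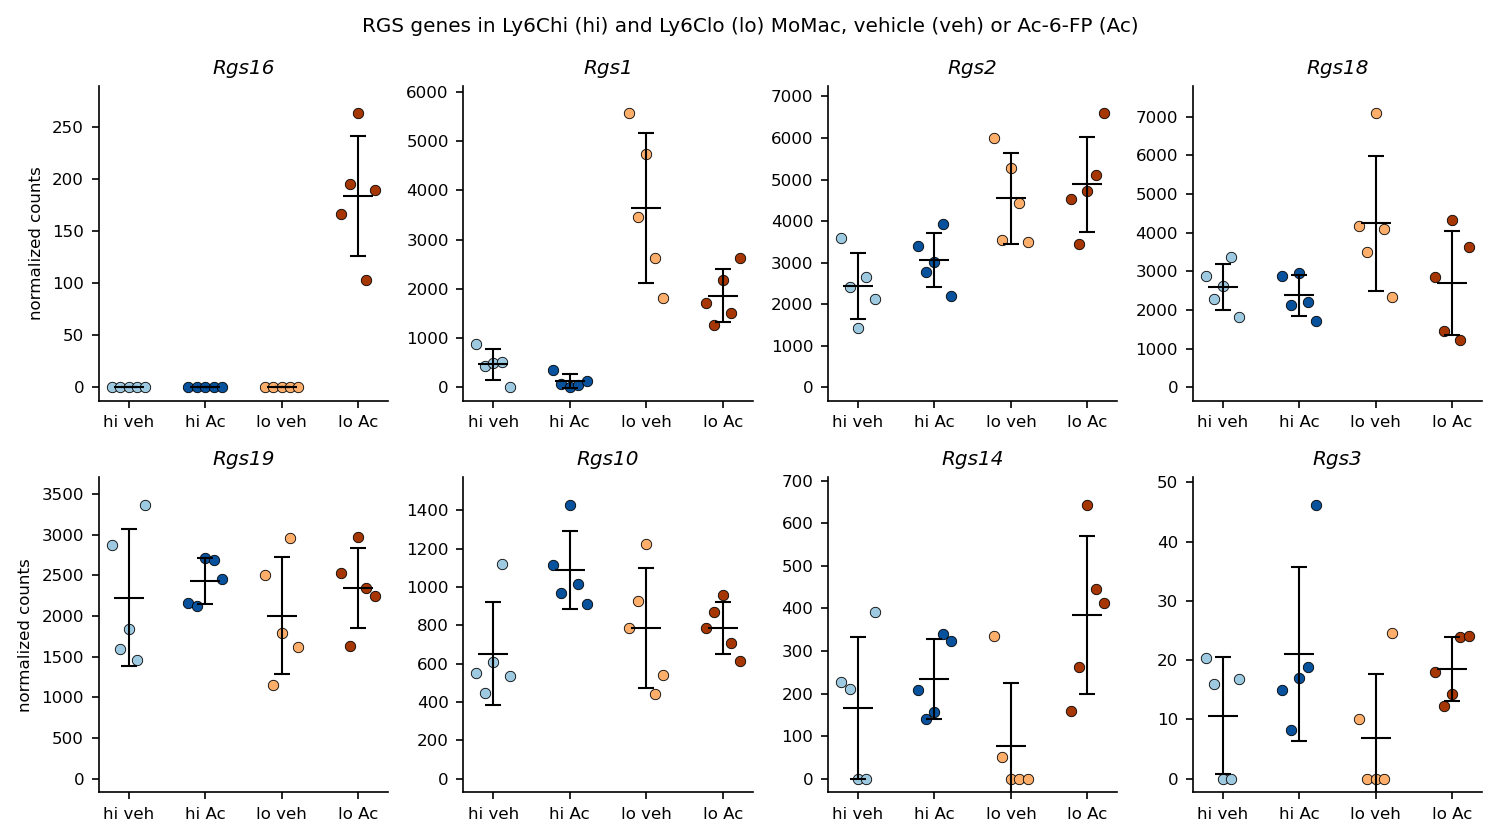
Normalized counts (linear y axes, 1 panel per gene) of the 8 RGS genes in Ly6Chi (hi) and Ly6Clo (lo) MoMac after vehicle (veh) or Ac-6-FP (Ac). Each point is 1 library, horizontal bars are means and whiskers SD (n = 5). Rgs16 left 0 in 1 group, and Rgs1 and Rgs2 were higher in Ly6Clo.

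A second feature without a symbol (GSMG0065381, chr1:153739871-153749340) spans the whole of Rgs16 and held 0 in the same 15 libraries and 127, 174, 232, 115 and 163 in the 5 Ly6Clo Ac-6-FP libraries, or 88.4% of the Rgs16 total. Its strand is not given in the sources used here, and without strand the reads of both features cannot be told apart, so the Rgs16 values may belong to either. They count as 1 observation. Of the 17248 genes tested, 0.116% (20 genes) were at 0 in all Ly6Clo vehicle libraries and above 0 in all Ly6Clo Ac-6-FP libraries. Over all 59311 features there were 23 such features, and the reverse pattern occurred in 0. In Ly6Chi, 16 features went from 0 to above 0 in this way and 1 the other way. Without mouse 13 the Ly6Clo counts were 25 and 2. Of the 23, Rgs16 and the feature over it were the only 2 that were also at 0 in all 10 Ly6Chi libraries, and the only 2 at 100 or more in every Ly6Clo Ac-6-FP library. Rgs16 was chosen by this pattern, and the cutoff of 100 lies just under its own minimum of 103. Its place among the 23 is therefore a description and no result. Trp53i11, also at 0 in both Ly6Chi groups, was not among the 23, since it averaged 0.37 in Ly6Clo vehicle libraries. Of the 23, the next highest by mean level in Ly6Clo Ac-6-FP were Tcaim (105, range 0.95 to 267), S100pbp (93.3, range 9.46 to 312) and Poll (92.6, range 35.9 to 177).

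Other measures also reached higher values with Ac-6-FP in Ly6Clo. Ac-6-FP libraries held 11156 to 15766 genes above 0, against 5343 to 15723 in vehicle mice, and the median log2 difference over all genes tested was 0.91 in Ly6Clo and 0.35 in Ly6Chi (0.35 and 0.29 without mouse 13). The sum of 8 markers of the sorted cells was 21628 to 46596 in vehicle and 37188 to 58388 in Ac-6-FP Ly6Clo libraries. Without mouse 13 its vehicle range was 25344 to 46596. Of these markers, Csf1r ranged from 874 to 10787 in vehicle and from 7824 to 20548 with Ac-6-FP. Hepatocyte and platelet marker sums had close medians, 1860 and 702.5 in vehicle against 1888 and 732.2 with Ac-6-FP. The summed NK marker level was 41813 to 69108 in vehicle and 48023 to 93247 in Ac-6-FP Ly6Clo libraries. The sum of 4 B cell markers (Cd79a, Cd79b, Ms4a1 and Pax5) was 0 to 778 in vehicle (394 to 778 without mouse 13) and 608 to 1131 in Ac-6-FP Ly6Clo libraries. Ms4a1, which encodes CD20, was at 0 in 4 of the 5 vehicle and in 1 of the 5 Ac-6-FP libraries, where it reached 103 and 206, and Pax5 was at 0 throughout. The sum of the 5 T cell markers was 0 to 125 in vehicle and 62.8 to 326 in Ac-6-FP Ly6Clo libraries. Of these, Cd3d was at 0 in 4 of the 5 vehicle libraries (highest value 2.48) and at 8.57 to 120 in all 5 Ac-6-FP libraries, so its groups did not overlap either, and Cd3g was at 0 in 4 vehicle libraries and 1 Ac-6-FP library and reached 226 with Ac-6-FP. In Ly6Chi the T cell sum was 0 to 31.9 in vehicle and 0 to 140 in Ac-6-FP libraries. The sum of 8 neutrophil markers was 10352 to 60815 and 20934 to 130230, that of 5 Kupffer cell markers 0 to 337 and 187 to 808, and that of 5 endothelial markers 0 to 2115 and 1008 to 4451, in the same order. The vehicle minimum of 0 in the endothelial sum is that of mouse 13, without which the sum was 633 to 2115. The part of these measures in the Rgs16 values was not tested.

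**Figure D2:**
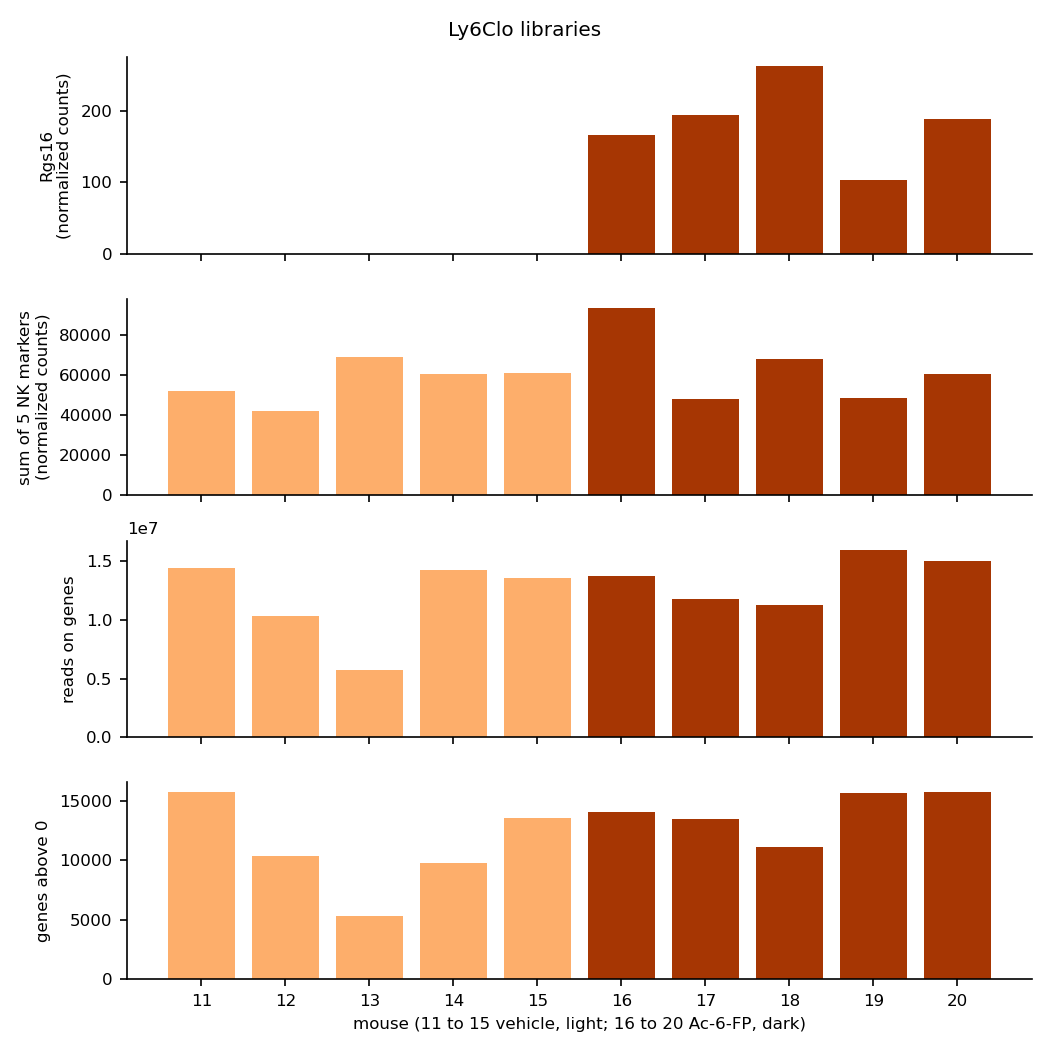
Rgs16 (normalized counts), the sum of 5 NK markers (Nkg7, Klrb1c, Ncr1, Gzma and Prf1, normalized counts), reads on genes and genes above 0 in the 10 Ly6Clo libraries, as bars from 0 (x axis, mouse; light, vehicle; dark, Ac-6-FP). Rgs16 was at 0 in mice 11 to 15 and at 103 to 263 in mice 16 to 20, while the NK marker sum was 41813 or more in all 10 libraries, and mouse 13 had the fewest reads and genes.

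The genes most like Rgs16 across the 20 libraries, by Pearson's r on the log2 scale, were the feature over it (r = 1.00), Trp53i11 (r = 0.99, above 0 in 6 libraries) and an unnamed feature on chromosome 3 (chr3:131109026-131112091, r = 0.92). These are descriptions over libraries that are mostly at 0, and they share depth and sort. Trp53i11 was at 0.37 in Ly6Clo vehicle and 92.5 in Ly6Clo Ac-6-FP libraries on average, and at 0 in both Ly6Chi groups.

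Rgs1 had the largest difference between the subsets among the 7 members tested. It acts on Gi and is known from lymphocytes and macrophages as a brake on chemokine receptors. In Ly6Clo it was at 5562, 3464, 4733, 2628 and 1817 normalized counts in vehicle mice 11 to 15. In the Ly6Clo libraries of mice 16 to 20, exposed to Ac-6-FP, it was at 1705, 1269, 2183, 1514 and 2622. In Ly6Chi of the vehicle mice it was at 888, 426, 491, 509 and 0, and of the mice exposed to Ac-6-FP at 354, 75.3, 0, 55.0 and 124. Every Ly6Clo value lay above every Ly6Chi value. The mean was 9.41-fold higher in Ly6Clo (2750 ± 1430 against 292 ± 292, SD, n = 10), and in the 8 mice with Rgs1 above 0 in Ly6Chi the ratio ran from 4.81 to 27.5. The within-mouse difference, Ly6Chi minus Ly6Clo, was -4.87 on the log2(normalized count + 1) scale (SE 0.95, limma adjusted p = 0.0100), and Rgs1 was higher in Ly6Clo in 10 of 10 mice (two-sided exact sign-flip permutation test, p = 0.00195, the smallest that 10 mice can give). Without mouse 13 the difference was -5.01 (limma adjusted p = 0.0174). Its size leans on the 2 mice with Rgs1 at 0 in Ly6Chi: it was -4.07 without mouse 15, -4.15 without mouse 18 and -3.67 with a count test on recovered reads. It was called under all 18 alternatives (adjusted p = 0.000555 to 0.0435).

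Rgs2 was the other member that passed the test between subsets. It was at 3589, 2419, 1423, 2662 and 2124 in Ly6Chi of vehicle mice 11 to 15 and at 6001, 3543, 5274, 4423 and 3497 in their Ly6Clo MoMac. With Ac-6-FP (mice 16 to 20) it was at 3400, 2771, 3024, 3926 and 2200 in Ly6Chi and at 4539, 3447, 4712, 5112 and 6591 in Ly6Clo. The subsets overlapped as groups, but Ly6Clo was higher in 10 of 10 mice, by 1.24-fold to 3.71-fold. The difference was -0.80 (SE 0.17, limma adjusted p = 0.0147; exact sign-flip permutation p = 0.00195), and -0.68 without mouse 13 (limma adjusted p = 0.0119). A count test (edgeR) on the reads recovered from the values, which leaves out mouse 15, gave -0.74 with an adjusted p of 0.0689, so this call depends on the test, while that of Rgs1 was kept (adjusted p = 0.0258).

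**Figure D3:**
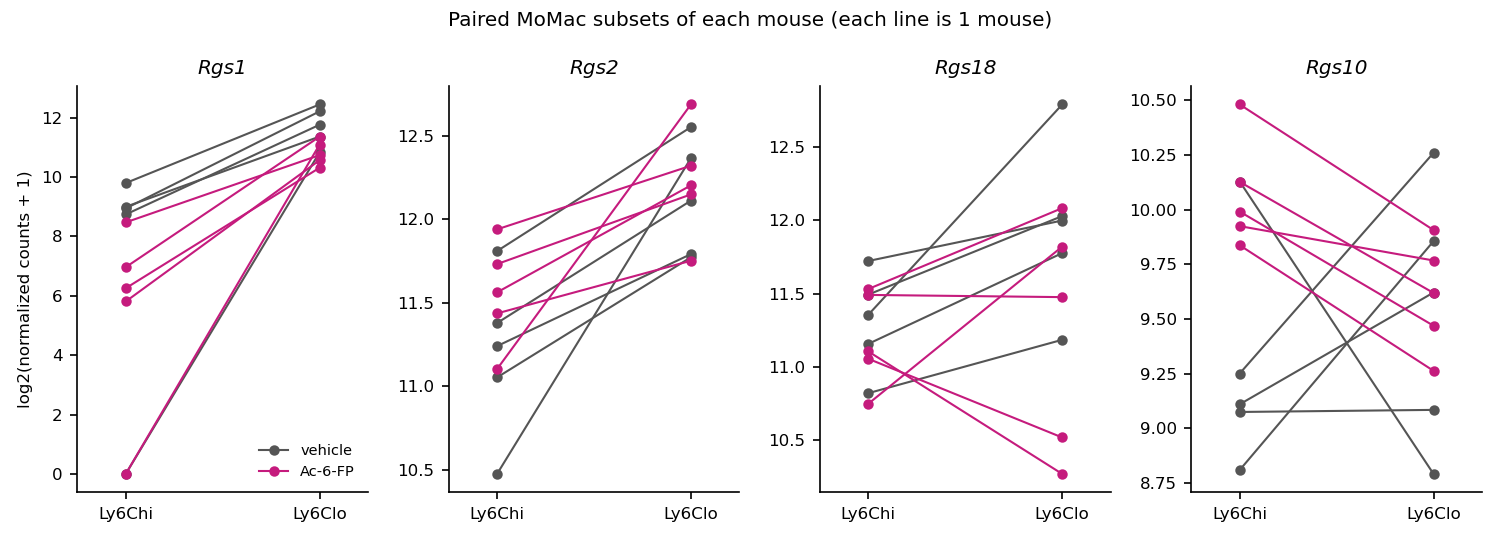
Rgs1, Rgs2, Rgs18 and Rgs10 as log2(normalized counts + 1) in the Ly6Chi and Ly6Clo MoMac of each mouse (1 line per mouse, y axes differ and do not start at 0; grey, vehicle; pink, Ac-6-FP). Rgs1 and Rgs2 were higher in Ly6Clo in 10 of 10 mice, and Rgs18 and Rgs10 in 7 and 4.

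In all, 2 of the 7 members other than Rgs16 differed between the subsets, both higher in Ly6Clo, where 3.41% of all genes tested were called in this direction and 5.22% in either. The same 2 were higher in Ly6Clo in all 10 mice, against 1.98% of genes. The NK marker sum was also higher in every Ly6Clo than in every Ly6Chi library (values above), Rgs1 and Rgs2 are expressed by lymphocytes too, and the part of such cells in both differences was not tested. The genes most like Rgs1 across the 20 libraries were Eno3 (r = 0.82), Gm5547 (r = 0.81), 2 unnamed features (r = 0.81 each) and AW112010 (r = 0.80), and Eno3 was at 253 and 212 in Ly6Chi and at 8787 and 10430 in Ly6Clo (vehicle and Ac-6-FP means).

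Rgs18, Rgs19 and Rgs10 were present in every library, and their within-mouse differences between the subsets did not pass the test. Rgs18, a regulator of Gi and Gq in platelets and myeloid cells, was at 2485 in Ly6Chi and 3468 in Ly6Clo on average (difference -0.35, SE 0.20, limma adjusted p = 0.40, and -0.25 without mouse 13), and platelet markers were present at a sum of 183 to 1902 in both subsets. For Rgs19 (also known as GAIP) the difference was 0.11 (95% confidence interval -0.30 to 0.52), and for Rgs10, a small regulator abundant in microglia and macrophages, 0.11 (-0.45 to 0.67). Rgs14, a scaffold that also binds Ras-family proteins, differed by 0.68 (-1.18 to 2.53) and Rgs3, one of the larger members, by 0.45 (-0.94 to 1.85). Without mouse 13 the differences of Rgs19, Rgs10, Rgs14 and Rgs3 were 0.12, 0.20, 0.93 and 0.57.

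Per kb of the longest coding transcript in GENCODE, Rgs18 led in Ly6Clo vehicle libraries, at 2086 normalized counts per kb. There, Rgs18 was followed by Rgs2 at 1505, Rgs19 at 1325, Rgs1 at 948, Rgs10 at 891, Rgs14 at 32.9, Rgs3 at 1.48 and Rgs16 at 0 normalized counts per kb. With Ac-6-FP in Ly6Clo, Rgs16 was at 78.4 per kb, below Rgs14 (163) and above Rgs3 (3.95). In Ly6Chi Ac-6-FP libraries, Rgs19 (1608), Rgs10 (1238), Rgs18 (1170) and Rgs2 (1014) led and Rgs1 was at 31.7. Reads were counted on constitutive regions, whose lengths are not given in the sources used here, so these per kb levels are approximate and the order of close neighbours was not tested. Of the 13 other numbered Rgs genes in the table, 8 were at 0 in all libraries and the highest value of the other 5 was 53.1. Only Rgs5, a gene of pericytes, passed the filter on low values (a mean of 10 in at least 1 group), at 16.6 in 1 Ly6Clo vehicle library and at 38.1 and 53.1 in 2 Ly6Clo Ac-6-FP libraries.

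The effect of Ac-6-FP within Ly6Chi MoMac passed the test in none of the 7 members other than Rgs16, with 0.0754% of genes called over the table by limma (edgeR called 0 of the 7). An unadjusted p under 0.05 was found in 1 of 7, against 8.73% of all genes, so this count is no result about the members. Rgs10 had that p. It was at 551, 447, 608, 1118 and 538 in vehicle mice 11 to 15 and at 1117, 971, 1428, 1017 and 914 in mice 16 to 20. Vehicle mouse 14 lay among the Ac-6-FP values and the other 4 below them. The difference was 0.80 (SE 0.24, limma adjusted p = 0.44; two-sided exact permutation p = 0.0397, unadjusted), with means of 653 ± 267 and 1089 ± 204 (SD, n = 5). Rgs1 was at 463 ± 316 in vehicle and 122 ± 137 in Ac-6-FP libraries (difference -1.80, SE 2.21, limma adjusted p = 0.79), with 1 library at 0 in each group. These 2 libraries set its size, which was -3.62 without mouse 15 and -0.42 without mouse 18, against -1.38 without mouse 13. Rgs14 was at 228, 210, 0, 0 and 392 in vehicle mice 11 to 15 and at 209, 140, 157, 339 and 324 in mice 16 to 20 (difference 2.95, SE 1.90, limma adjusted p = 0.67, and 1.74 without mouse 13 or 14), so the 3 vehicle libraries above 0 lay in or above the Ac-6-FP range. Rgs3, with 2 vehicle libraries at 0, differed by 1.72 (SE 1.19, limma adjusted p = 0.69, and 1.08 without mouse 13 or 14). Both estimates depend on the scale, as libraries at 0 enter them. With pseudocounts of 0.1 and 10, quantile normalization and edgeR, Rgs14 was at 4.27, 1.65, 2.52 and 1.07, and Rgs3 at 3.01, 0.65, 0.36 and 1.17. Rgs2, Rgs18 and Rgs19 differed by 0.36, -0.12 and 0.20, each with an interval that includes 0, and by 0.18, -0.11 and 0.15 without mouse 13. In 0 of the 7 members were Ac-6-FP and vehicle values without overlap, against 1.35% of all genes.

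In Ly6Clo MoMac, too, none of the 7 passed the test for Ac-6-FP (0.0522% of genes were called by limma, and edgeR called 0 of the 7), while 3 of 7 had an unadjusted p under 0.05, against 9.31% of all genes. Rgs1 was at 1858 ± 543 against 3641 ± 1522 in vehicle mice (SD, n = 5), or 0.51-fold. The difference was -0.91 (SE 0.33, limma adjusted p = 0.53; exact permutation p = 0.0317, unadjusted), and the groups overlapped, since vehicle mouse 15 (1817) lay among the Ac-6-FP values and mouse 14 (2628) just above them. Without mouse 13 it was -0.79 (limma adjusted p = 0.64). Rgs14 was at 336, 52.0, 0, 0 and 0 in vehicle mice 11 to 15 and at 158, 262, 643, 446 and 414 in mice 16 to 20. Its difference was 5.61 (SE 1.73, limma adjusted p = 0.53; exact permutation p = 0.0238, unadjusted), and 1 vehicle library lay among the Ac-6-FP values. With 3 vehicle libraries at 0, the size of this estimate depends on the scale: it was 3.61 with a pseudocount of 10, 7.61 with one of 0.1 and 2.24 with edgeR, 4.91 without mouse 13, 14 or 15, and 7.01 without mouse 11 (adjusted p = 0.0894 to 0.949 over all alternatives). A feature without a symbol overlaps Rgs14 at 27.5% of its total, so part of these reads may belong to it. Rgs3 was at 0 to 24.6 in vehicle and 12.3 to 24.1 in Ac-6-FP libraries, with 3 vehicle libraries at 0 (difference 2.61, SE 1.12, limma adjusted p = 0.53). That estimate was 0.93 with a pseudocount of 10, 4.57 with one of 0.1, 1.05 after quantile normalization, 1.36 with edgeR and 2.21 without mouse 13 (adjusted p = 0.289 to 0.998 over all alternatives). Rgs18 was at 4237 ± 1754 and 2700 ± 1344 (difference -0.72, SE 0.42, limma adjusted p = 0.56, and -0.51 without mouse 13). Rgs2, Rgs10 and Rgs19 differed by 0.10 (95% confidence interval -0.37 to 0.58), 0.08 (-0.59 to 0.75) and 0.28 (-0.34 to 0.89), and by 0.17, 0.27 and 0.26 without mouse 13. Groups without overlap were 1.5% of all genes and 0 of these 7.

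**Figure D4:**
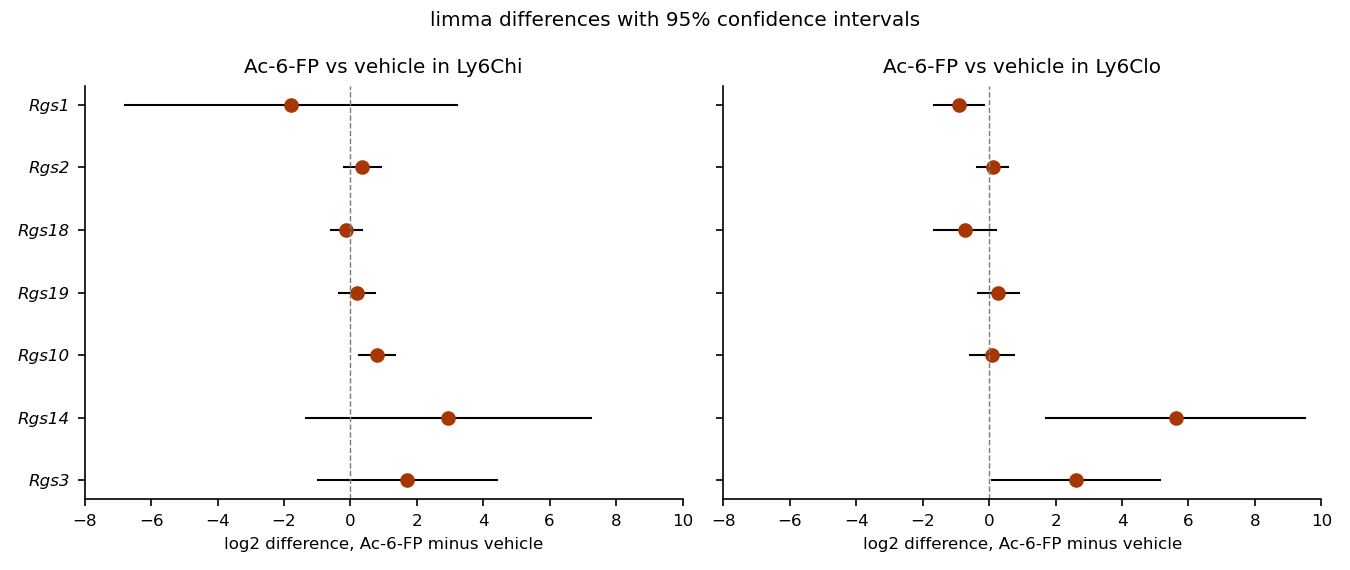
Difference between Ac-6-FP and vehicle (x axis, log2 of normalized counts + 1) for 7 RGS genes in Ly6Chi (left) and Ly6Clo (right), as limma estimates (points) with 95% confidence intervals (lines, n = 5 against 5 mice). Intervals of Rgs10 in Ly6Chi and of Rgs1, Rgs14 and Rgs3 in Ly6Clo exclude 0 before adjustment over all genes, and none passed after it. Rgs16 is left out, since it was chosen by its values.

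The change with Ac-6-FP was compared between the subsets by the within-mouse difference. It passed the test in none of the 7 members (0 with an unadjusted p under 0.05, against 4.87% of all genes) and in 0% of all 17248 genes, 840 of which had an unadjusted p under 0.05 (edgeR called 0, with 373). Estimates for Rgs14, Rgs18 and Rgs10 were -2.67, 0.60 and 0.72 (limma adjusted p = 0.83 for each), and -3.17, 0.40 and 0.53 without mouse 13. The estimate for Rgs14 was -1.01 without mouse 15 and -1.21 with edgeR, which leaves out the same mouse. Rgs10 was higher in Ly6Chi than in Ly6Clo in 5 of 5 Ac-6-FP mice and in 1 of 5 vehicle mice, a difference that did not pass this test.

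Genes that work upstream and downstream of RGS proteins were taken as lists. With Ac-6-FP, 0 genes of the 7 lists were called in either subset. Over all genes tested, 0.0754% were called in Ly6Chi and 0.0522% in Ly6Clo, so this count is no result about the lists. Their medians in Ly6Clo, beside 0.91 over all genes, were 0.81 for 20 chemoattractant and Gi-coupled receptors, 0.63 for 8 G protein alpha subunits, 0.05 for 10 beta and gamma subunits, 1.51 for 7 receptor kinases and arrestins, 1.82 for 15 other regulators of alpha subunits, 1.40 for 14 adenylyl cyclases, phospholipases C beta and related effectors, and 0.40 for 8 neighbours of the Rgs genes on chromosome 1. Without mouse 13 these medians were 0.18, 0.20, -0.13, 0.37, 1.42, 0.91 and 0.21, beside 0.35 over all genes. In Ly6Chi, beside 0.35 over all genes, they were 0.37, 0.24, 0.00, 1.94, 0.78, 0.46 and 0.87 in the same order, and without mouse 13 they were 0.11, 0.04, -0.18, 0.58, 0.14, 0.43 and 0.69, beside 0.29 over all genes. The smallest adjusted p among these genes in Ly6Chi was that of Ptafr, the receptor of platelet-activating factor (difference -1.05, SE 0.15, limma adjusted p = 0.0698).

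Between the subsets, 6 of the 20 receptors were called, 3 in each direction, where 5.22% of all genes were called (588 higher in Ly6Clo and 312 in Ly6Chi). Fpr1, the formyl peptide receptor, was higher in Ly6Clo (6717 ± 2931 against 1351 ± 735, SD, n = 10, difference -2.37, limma adjusted p = 0.000120). Ccr2, the receptor that draws monocytes into tissue, was higher in Ly6Chi (17040 ± 3621 against 6777 ± 2612, difference 1.40, limma adjusted p = 0.00118), as were Ccr1 (difference 1.03) and P2ry12 (3.50). Neutrophils also express Fpr1, and the sum of 8 neutrophil markers was 8756 to 15095 in Ly6Chi and 10352 to 130230 in Ly6Clo. Retnlg, the highest of them in Ly6Clo, had medians of 30.1 and 132 in Ly6Chi (vehicle and Ac-6-FP) and of 35768 and 43239 in Ly6Clo, while Mmp8 was higher in every Ly6Chi than in every Ly6Clo library. Cxcr2 was at 0 in 9 of 10 Ly6Chi libraries and above 0 in 8 of 10 Ly6Clo libraries. Ly6g, whose product was gated out, had medians of 0.92 and 1.89 in Ly6Clo (vehicle and Ac-6-FP, highest value 192). In Ly6Chi its medians were 0 and 0.94. The part of such cells in the difference of Fpr1 was not tested. Of the G protein beta and gamma subunits, Gng5 (difference -0.53, limma adjusted p = 0.0103) and Gnb1 (-0.41, limma adjusted p = 0.0199) were higher in Ly6Clo. None of the 8 alpha subunits, 7 kinases and arrestins or 15 other regulators was called. Plcb1, a phospholipase C that Gq activates, was higher in Ly6Chi (61.7 ± 54.8 against 0.53 ± 1.17, difference 4.72, limma adjusted p = 0.00387). Npl, a neighbour of the Rgs genes, was higher in Ly6Clo (difference -3.99, limma adjusted p = 0.0465), as 1 of 8 neighbours called.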

How the data were processed

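RNA of about 30000 sorted cells per library was sequenced in 20 libraries (paired reads of 75 bases, low-input kit). According to the Methods, the authors aligned reads with STAR 2.4.0 to mm10, counted those on constitutive regions of FAST DB genes and normalized with DESeq2. The deposited signal values are these normalized counts. Whether counting used strand is not given in the sources used here. Whole reads could be recovered in all 20 libraries (100% of low values whole within 0.006). The step of the Ly6Chi library of mouse 15, 0.989, lies near 1, and mouse 15 was left out of the edgeR fits that use Ly6Chi libraries.

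Here, log2(value + 1) of the 17248 genes with a mean of at least 10 in 1 of the 4 groups was fitted with limma 3.58.1 (R 4.3.3), with Benjamini-Hochberg adjustment over all of them and a threshold of 0.05. Ac-6-FP and vehicle were compared within each subset (5 against 5 mice), and subsets by within-mouse differences, since the labels give both libraries 1 mouse number (their residuals correlated at 0.00334 to 0.25). Single genes also had two-sided exact permutation tests over mice, whose smallest p is 0.00794 for 5 against 5. Alternatives were pseudocounts of 0.1 and 10, no filter, a filter at 100, quantile normalization, a covariate for how many genes were detected, each mouse left out, no replicate block and, chosen after seeing the data, edgeR 4.0.16 on recovered reads. The fits were tested on simulated data. Members and lists were chosen with earlier results of these data known. Named were the 8 members, other Rgs genes past the filter, up to 4 genes per list by smallest p, the 5 genes most like Rgs16 and Rgs1 (1 gene among those like Rgs16 and in the B cell list, and a feature over it, are not reported here), and the highest features with the pattern of Rgs16. Sequences came from RefSeq windows of GRCm38.p6, tables were handled with Python 3.11.15 and pandas 2.3.3, and limits on 0 counts use 3 reads.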

Additional observations from a re-analysis of the deposited data

Results flagged for a closer look

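In 3 of the groups of 5 libraries, 1 library of a member lay far from the other 4, of 29 groups looked at. Chance alone would flag about 1 in 20 groups if values were normally distributed. These counts are skewed and some are at 0, so that rate need not hold here. Rgs10 was at 1118 normalized counts in the Ly6Chi library of vehicle mouse 14, and the next highest of that group was at 608. Without mouse 14 the Ac-6-FP difference of Rgs10 in Ly6Chi was 1.01 (limma adjusted p = 0.19). Rgs14 was at 336 in the Ly6Clo library of vehicle mouse 11, and the next highest was at 52.0, with 0 in the other 3. Without mouse 11 the difference of Rgs14 in Ly6Clo was 7.01 (limma adjusted p = 0.0894). Rgs3 was at 46.2 in the Ly6Chi library of Ac-6-FP mouse 20, and the next highest was at 18.9.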

How the results depend on the processing

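Of the 7 members tested, none was called for Ac-6-FP in Ly6Chi, for Ac-6-FP in Ly6Clo or for the difference between these changes under any alternative, and the 2 called between the subsets (Rgs1 and Rgs2) were both called under every alternative but edgeR on recovered reads, which called 1 and lost Rgs2 (-0.74, adjusted p = 0.0689). Without the replicate block, 2 members were called between the subsets and 0 for the difference of the changes, so pairing by mouse changed no call of a member. Rgs3 could not be fitted with the filter at 100. The lowest fold allowed for Rgs16 ran from 44.8 to 61.2 with each mouse left out in turn. Directions reversed only for differences that were not called, and the cause was not tested. With a covariate for how many genes were detected, Rgs19 with Ac-6-FP in Ly6Chi was at -0.073. In Ly6Clo, Rgs10 was at -0.085 after quantile normalization and at -0.022 with edgeR, and edgeR put the difference of the changes of Rgs19 at 0.18. With each mouse left out, Rgs2 and Rgs10 with Ac-6-FP in Ly6Clo ran from -0.013 to 0.22 and from -0.10 to 0.27. Between the subsets, Rgs10, Rgs14 and Rgs19 ran from -0.088 to 0.21, from -0.15 to 1.00 and from -0.004 to 0.26, and the differences of the changes of Rgs1 and Rgs19 from -2.49 to 0.56 and from -0.37 to 0.15. Counts over all genes moved more, from 0 to 133 in Ly6Chi (13 in the fit reported), from 0 to 103 in Ly6Clo (9), from 392 to 1848 between the subsets (900) and from 0 to 4 for the difference of the changes (0). The highest counts in Ly6Chi and Ly6Clo came without mouse 11, at 133 and 103.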

Other observations

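Of the listed receptors and G protein subunits, Ptafr, C5ar1 and Gnb1 had the smallest unadjusted p for Ac-6-FP in either subset, and none passed the adjustment over all genes. In the other lists, Pik3r5 and Axin1 had a smaller unadjusted p than C5ar1 and Gnb1. Pik3r5 differed by 5.31 in Ly6Chi and 5.03 in Ly6Clo (limma adjusted p = 0.37 and 0.45). Axin1 differed by 4.30 in Ly6Clo (limma adjusted p = 0.52). C5ar1, the receptor of complement C5a, was at 3071 ± 1062 normalized counts in vehicle and 5823 ± 1764 in Ac-6-FP libraries of Ly6Clo MoMac (SD, n = 5, difference 0.94, limma adjusted p = 0.53), and at 2733 ± 745 and 2327 ± 201 in Ly6Chi. Gnb1, a G protein beta subunit, was at 7844 ± 890 and 6276 ± 776 in Ly6Chi (difference -0.32, limma adjusted p = 0.52), and at 9933 ± 2698 and 8941 ± 1321 in Ly6Clo. Ptafr was at 5226 ± 357 and 2577 ± 522 in Ly6Chi, and at 3217 ± 2153 and 2474 ± 594 in Ly6Clo, and its change did not differ between the subsets past the threshold (difference -0.83, limma adjusted p = 0.83).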
